A study of Mus musculus with 5 samples.

Results

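The collagen genes of the mouse were described here in laser-captured cells of the newborn small intestine, in 3 control and 2 Dnmt1 mutant libraries. They are all genes of the deposited count table whose symbol has the form of Col, a number, the letter a and a number, 43 of 22869 gene symbols, each read from its RefSeq transcript with the highest mean count. Sorted by the structures their proteins form, 11 are fibrillar collagens, 8 are collagens of the basement membrane (type IV, XV and XVIII) and 24 are others. The control libraries (numbered 1, 2 and 3) came from mice with the genotype Dnmt1 L/+, that is, with 1 floxed and 1 wild-type allele; their label names no Cre. The mutant libraries (numbered 4 and 6) came from mice of genotype Dnmt1 L/L; VillinCre, in which Cre recombinase is driven by the Villin promoter of the gut epithelium. All were intervillus cells of the proximal jejunum at postnatal day 0, from methacarn-fixed tissue. Control areas were picked as Ki67-positive and mutant areas as Ki67-negative on stained neighbouring sections, so genotype and choice of area cannot be told apart. Sex-linked transcripts also split the groups: Xist was at 2.96 to 4.26 CPM in controls and 639 and 901 CPM in mutants, and 4 Y-linked genes together had 2710 to 3160 counts in controls and 4 and 3 in mutants. CPM is a gene's count per 10 to the power 6 counts summed over all tested transcript rows, TMM-scaled. A read shared by transcripts of a gene can count more than once in that sum. The targeted gene Dnmt1 was at 95.1 to 128 CPM in controls and at 37.8 and 40.5 CPM in mutants. Totals were 10530200 to 13356901 counts in controls and 8730268 and 10260760 in mutants, with 1 transcript per gene. These totals are the base of the percent of counts given below, and not of CPM. Whether the libraries are of different mice is not stated in the labels; the p-values below therefore cover the spread among these 5 libraries alone, part or all of which may be technical.

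Collagens are proteins of 3 chains wound into a triple helix. Fibroblasts and smooth muscle cells secrete most fibrillar collagen (types I, III and V in soft tissue), which assembles into tension-bearing fibres. Type IV collagen forms the sheet-like network of the basement membrane on which the gut epithelium sits, type XV and XVIII are proteoglycan collagens of the same zone, and type VI forms beaded filaments next to it. In the developing gut, mesenchymal cells under the epithelium are a main source of these chains, whereas Villin is an epithelial gene.

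Promoter windows of 300 bases, from 250 before to 50 after the start site, were matched in the RefSeq table of build GRCm38.p6 for 35 of the 43 genes (38 windows); RefSeq coordinates are of another build than the deposited counts. They are printed for the most abundant type IV pair and for the 4 genes with a window that rose in the mutants, because these genes carry the comparisons below and because CG pairs (in capitals) are the bases that Dnmt1 methylates; methylation itself was not measured in these data.
Col4a1 promoter (chr8:11312777-11313076, minus strand): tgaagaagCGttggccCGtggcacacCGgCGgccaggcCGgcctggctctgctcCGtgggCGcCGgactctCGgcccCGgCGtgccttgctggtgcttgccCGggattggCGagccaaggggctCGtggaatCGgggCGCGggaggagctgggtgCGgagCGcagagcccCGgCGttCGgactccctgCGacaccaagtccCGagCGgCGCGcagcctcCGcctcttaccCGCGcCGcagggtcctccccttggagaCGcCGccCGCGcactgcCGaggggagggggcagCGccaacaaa
Col4a2 promoter (chr8:11312555-11312854, plus strand): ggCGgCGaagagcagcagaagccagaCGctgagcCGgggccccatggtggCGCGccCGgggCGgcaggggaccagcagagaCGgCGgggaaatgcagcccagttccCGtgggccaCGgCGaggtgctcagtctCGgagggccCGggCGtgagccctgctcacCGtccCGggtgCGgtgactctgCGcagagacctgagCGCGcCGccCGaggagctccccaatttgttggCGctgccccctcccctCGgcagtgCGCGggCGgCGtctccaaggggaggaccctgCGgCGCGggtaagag
Col1a2 promoter (chr6:4505368-4505667, plus strand): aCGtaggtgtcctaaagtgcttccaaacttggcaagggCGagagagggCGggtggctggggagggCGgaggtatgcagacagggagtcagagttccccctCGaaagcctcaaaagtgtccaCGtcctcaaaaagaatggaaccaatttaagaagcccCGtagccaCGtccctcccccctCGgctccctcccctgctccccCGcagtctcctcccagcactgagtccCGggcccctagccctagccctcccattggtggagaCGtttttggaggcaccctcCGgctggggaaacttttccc
Col3a1 promoter (chr1:45311288-45311587, plus strand): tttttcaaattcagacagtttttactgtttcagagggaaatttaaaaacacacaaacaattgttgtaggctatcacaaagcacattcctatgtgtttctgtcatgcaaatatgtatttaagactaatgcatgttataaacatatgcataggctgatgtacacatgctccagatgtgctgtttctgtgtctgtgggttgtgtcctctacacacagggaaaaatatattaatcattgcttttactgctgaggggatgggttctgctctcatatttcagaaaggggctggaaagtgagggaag
Col18a1 promoter of the upstream start (chr10:77166481-77166780, minus strand): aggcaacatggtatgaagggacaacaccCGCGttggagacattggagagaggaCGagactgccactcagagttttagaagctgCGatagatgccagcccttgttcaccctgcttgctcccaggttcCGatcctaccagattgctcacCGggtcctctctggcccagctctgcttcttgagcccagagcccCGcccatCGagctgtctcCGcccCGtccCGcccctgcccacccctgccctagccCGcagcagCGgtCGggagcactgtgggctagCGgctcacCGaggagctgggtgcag
Col18a1 promoter of the downstream start (chr10:77113656-77113955, minus strand): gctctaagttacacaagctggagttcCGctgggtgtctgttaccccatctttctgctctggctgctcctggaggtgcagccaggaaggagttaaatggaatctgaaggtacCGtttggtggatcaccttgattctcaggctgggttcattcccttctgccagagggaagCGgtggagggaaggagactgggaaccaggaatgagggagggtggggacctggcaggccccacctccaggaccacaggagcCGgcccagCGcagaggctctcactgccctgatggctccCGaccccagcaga
Col8a1 promoter (chr16:57754688-57754987, minus strand): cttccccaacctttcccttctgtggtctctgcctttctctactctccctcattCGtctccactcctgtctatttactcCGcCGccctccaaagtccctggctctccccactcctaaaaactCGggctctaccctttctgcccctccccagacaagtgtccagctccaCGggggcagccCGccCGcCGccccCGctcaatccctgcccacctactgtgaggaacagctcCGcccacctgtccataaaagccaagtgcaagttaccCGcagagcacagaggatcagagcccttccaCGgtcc

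The windows differ widely in CG content. Col4a1 and Col4a2, which are read in opposite directions from start sites 21 bases apart and whose windows share 78 bases, have 37 and 33 CG pairs, more than 94.4% and 91.4% of the 32851 windows of all genes. The Col3a1 window has 0 CG pairs, Col1a2 has 13, Col8a1 has 12, and the 2 starts of Col18a1, which lie 52825 bases apart, have 16 and 6. The median was 11.5 CG pairs in collagen windows and 7 in all windows. By class it was 14.5 in 8 fibrillar, 12.5 in 8 basement membrane and 10 in 22 other windows. On either strand, the letters CCAAT occur in 34.2% of collagen windows and 37.4% of all windows, TATAAA in 13.2% and 13.6%, and GGGCGG in 60.5% and 35.7%; GGGCGG itself holds a CG pair. These are descriptions of letters in a window and no test was made on them.

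Set out by level per transcript length, the collagens were led by a few chains. On deposited FPKM (fragments per kilobase of transcript, scaled to library size), the mean over the 5 libraries was 74.4 for Col6a2, 59.5 for Col3a1, 58.0 for Col6a1, 57.8 for Col1a1 and 52.8 for Col1a2. Col4a1 (39.4), Col4a2 (30.1) and Col6a4 (29.7) followed, and these 8 chains held 79.9% to 82.3% of all collagen FPKM in each library. The epithelial adhesion gene Epcam, for comparison, had 472 FPKM in controls and 391 in mutants, and all 14 epithelial markers passed the filter on low counts. Vim, a mesenchymal filament gene, was at 54.2 and 75.3 FPKM, and collagen and mesenchymal transcripts were thus present in both groups. In bulk samples such as these, more cells of a type and more RNA per cell cannot be told apart.

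**Figure D1:**
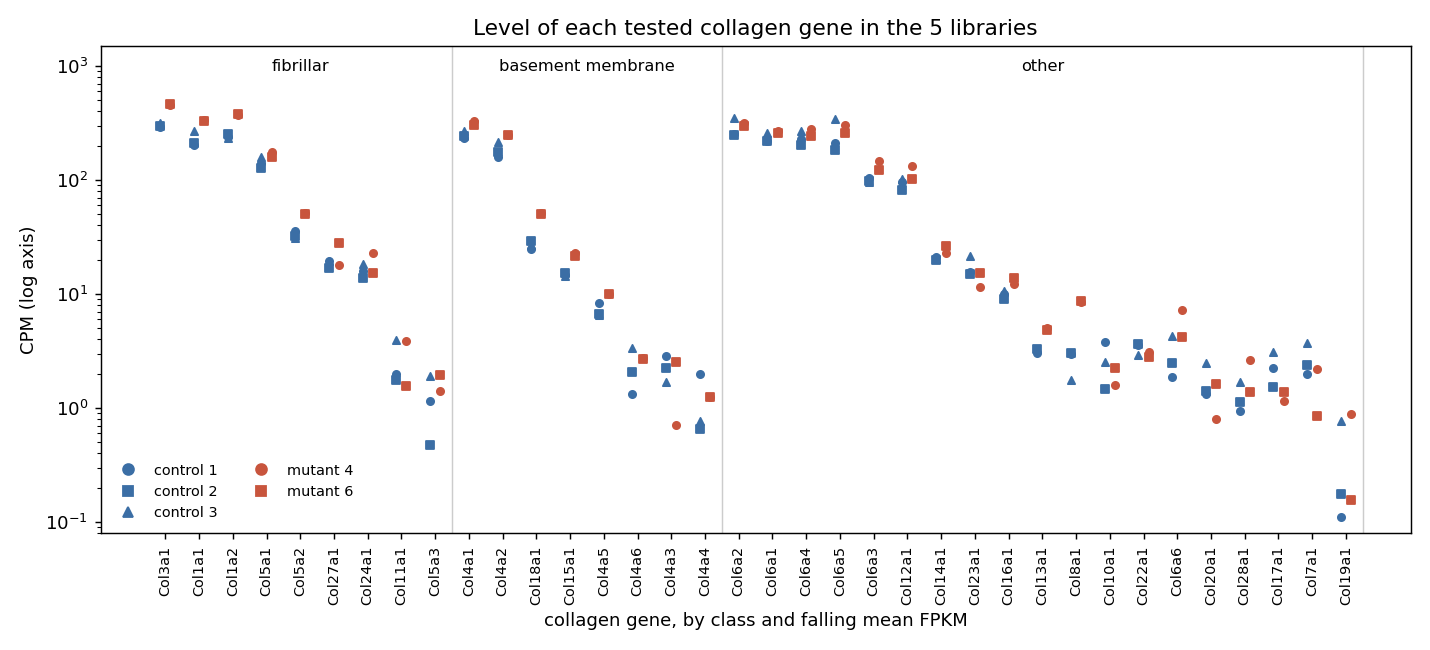
CPM (log axis) of the 36 collagen genes that passed the filter on low counts, grouped by class and ordered by falling mean FPKM; blue symbols are the 3 controls and red symbols the 2 mutants. The red symbols of Col3a1, Col1a1, Col1a2 and Col5a2 lie above all blue ones, while those of Col6a1, Col6a2, Col6a4 and Col6a5 overlap them.

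Of the 43 genes, 36 passed the filter on low counts, and 6 of these rose in the mutants (16.7%), where 6.11% of the 14572 genes tested rose. They were the fibrillar Col1a1, Col1a2, Col3a1 and Col5a2, the basement membrane collagen Col18a1 and the network collagen Col8a1. None fell, where 4.17% of all genes fell (edgeR's quasi-likelihood test with Benjamini-Hochberg adjustment). At an unadjusted p under 0.05 there were 12 of 36 higher, where 13.6% of all genes were, and 0 lower, where 12.1% were, and with DESeq2 8 were higher (6.27% of all genes) and 0 lower (4.21% of all genes). The median log2 fold change was 0.31 over the 36 genes and -0.0072 over all genes tested, and 29 of the 36 had a positive value. On CPM both mutants lay above all controls in 15 genes (41.7%; 21.7% of all genes) and below them in 1, Col17a1 (21.8% of all genes). The size of the set of rises rested on both mutants: without mutant 4 or without mutant 6, 2 collagens passed, Col18a1 and Col8a1, where 2.67% and 3.56% of all genes rose. Without control 1, 2 or 3 there were 5, 6 and 9, where 3.74%, 7.32% and 6.41% of all genes rose. On deposited FPKM tested with limma 0 passed, where 0.476% (pseudocount 1) and 0.761% (pseudocount 0.1) of all genes rose, and 1 (Col18a1) passed among genes with a mean FPKM of at least 1, where 2.08% rose. Under RLE scaling, upper-quartile scaling, no filter and a stricter filter 7, 8, 8 and 8 collagens rose, where 6.28%, 6.82%, 6.53% and 6.97% of all genes rose.

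Among fibrillar collagens, the abundant type I and III chains rose together by about the same amount. Col1a1 and Col1a2 encode the 2 kinds of chain of type I collagen, the main fibre of connective tissue. Col1a1 was at 202, 212 and 267 CPM in the controls and 336 and 329 CPM in the mutants, with a log2 fold change, mutant over control, of 0.55 ± 0.14 (the error being the SE throughout; edgeR adjusted p = 0.0259). Col1a2 was at 236, 252 and 235 CPM in the controls and 374 and 376 CPM in the mutants (0.64 ± 0.12; edgeR adjusted p = 0.00512). In both genes the groups did not overlap, and control 3 stood above the other controls in Col1a1 but not in Col1a2. The FPKM ratio of Col1a1 to Col1a2 was 1.13 ± 0.155 in controls (SD, n = 3) and 1.07 ± 0.0280 in mutants (SD, n = 2; exact permutation test, two-sided p = 1.0), and ranged from 1.02 to 1.31 over the 5 libraries.

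Col3a1, the chain of type III collagen, which forms the fine fibres of extensible tissue, was at 291, 298 and 318 CPM in the controls and 459 and 466 CPM in the mutants (0.61 ± 0.12; edgeR adjusted p = 0.00665). The spread within each group was small next to the gap between the groups. Type V collagen nucleates fibrils, and its chains moved unequally. Col5a2 was at 35.3, 32.0 and 31.0 CPM in the controls and 51.1 and 49.8 CPM in the mutants (0.62 ± 0.14; edgeR adjusted p = 0.0135). Its partner chain Col5a1, which is more abundant, was at 141, 128 and 160 CPM in the controls and 175 and 160 CPM in the mutants (0.23 ± 0.14; edgeR adjusted p = 0.312), so that mutant 6 fell just below control 3. The FPKM ratio of Col5a2 to Col5a1 was 0.295 ± 0.0756 in controls and 0.380 ± 0.0533 in mutants, with overlapping groups (exact permutation test, two-sided p = 0.4).

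The remaining fibrillar genes were lower in level and did not pass. Col27a1 was at 17.0 to 19.5 CPM in controls and 17.9 and 28.1 CPM in mutants, and Col24a1 at 13.9 to 18.5 CPM in controls and 22.7 and 15.2 CPM in mutants; in both, the mutants differed from each other by more than the controls did. Col11a1 and Col5a3 stayed under 4 CPM in every library. Of 9 fibrillar genes tested, 4 rose (44.4%, where 6.11% of all genes rose) and 9 had a positive log2 fold change, with a median of 0.52. Without control 2 that median was 0.26, and 3 genes passed without control 1 (3.74% of all genes), Col1a1 having an adjusted p of 0.118. Without mutant 4 or mutant 6 none of the 4 passed (edgeR adjusted p between 0.0573 and 0.170; 2.67% and 3.56% of all genes rose) although their fold changes stayed between 0.54 and 0.64. On deposited FPKM their fold changes were 0.49 to 0.64 and also did not pass (limma adjusted p between 0.062 and 0.429).

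Basement membrane collagens had mostly higher values in the mutants, but 1 of 8 passed the test (12.5%, where 6.11% of all genes rose). Col18a1, whose C-terminal fragment is endostatin, was at 24.7, 29.0 and 26.7 CPM in the controls and 50.9 and 50.0 CPM in the mutants, 1.88 times as high (0.91 ± 0.15; edgeR adjusted p = 0.00146). The mutants agreed closely and lay far above every control. The rise passed without any 1 of the 5 libraries, and on deposited FPKM only among genes with a mean of at least 1 (limma adjusted p = 0.123 and 0.0851 otherwise). The 2 RefSeq transcripts of Col18a1 shared nearly all reads (449 counts each in control 1). They were not matched to the 2 start sites printed above, so which start was used cannot be told. The FPKM ratio of Col18a1 to Col4a1 was 0.117 ± 0.0140 in controls and 0.199 ± 0.00884 in mutants (exact permutation test, two-sided p = 0.2, the smallest that 3 against 2 libraries allow).

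The chains of type IV collagen had a smaller difference. Col4a1 and Col4a2, the pair that forms the common basement membrane network, were both higher in each mutant than in any control, without passing. Col4a1 was at 233, 242 and 268 CPM in the controls and 326 and 306 CPM in the mutants (0.35 ± 0.13; edgeR adjusted p = 0.099). Col4a2 was at 159, 178 and 214 CPM in the controls and 250 and 246 CPM in the mutants (0.43 ± 0.14; edgeR adjusted p = 0.0713). In both genes control 3 was the highest control, and Col4a2 passed without control 3 (adjusted p = 0.0161), with DESeq2 (0.0379) and with no filter on low counts (0.0274). The FPKM ratio of Col4a1 to Col4a2 was 1.37 ± 0.0472 in controls and 1.25 ± 0.0766 in mutants; the groups did not overlap (exact permutation test, two-sided p = 0.2, again the smallest possible).

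Col15a1, the nearest relative of Col18a1, was at 14.7, 15.3 and 14.5 CPM in the controls and 22.9 and 21.7 CPM in the mutants (0.59 ± 0.18; edgeR adjusted p = 0.0532). It passed under RLE and upper-quartile scaling and under a stricter filter on low counts (0.0497, 0.0409 and 0.0455). The X-linked Col4a5, a chain of specialised membranes such as the kidney's, was at 6.55 to 8.31 CPM in controls and 9.91 and 9.95 CPM in mutants (0.46 ± 0.25; edgeR adjusted p = 0.251); groups split by Xist and Y-linked transcripts also differ in X chromosomes. Col4a3, Col4a4 and the X-linked Col4a6 stayed under 4 CPM in every library, with overlapping groups. The class had a median log2 fold change of 0.39, and of the 6 type IV genes alone 0 passed edgeR (2 had an unadjusted p under 0.05 and 1, Col4a2, passed with DESeq2). Of all genes, 6.11% rose with edgeR, 13.6% were higher at an unadjusted p under 0.05 and 6.27% rose with DESeq2.

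Of the 19 other collagens tested 1 rose (5.26%, near the 6.11% of all genes). Type VI collagen, the beaded filament, has 6 genes here, and 0 of them passed edgeR (2, Col6a3 and Col6a6, had an unadjusted p under 0.05, and 1, Col6a3, passed with DESeq2). Of all genes, 13.6% were higher at an unadjusted p under 0.05 and 6.27% rose with DESeq2. Col6a1 was at 221, 221 and 260 CPM in the controls and 271 and 257 CPM in the mutants (0.18 ± 0.13; edgeR adjusted p = 0.431). Col6a2 was at 255, 249 and 349 CPM in the controls and 317 and 299 CPM in the mutants (0.12 ± 0.16; edgeR adjusted p = 0.688). The mutants overlapped the controls in both genes because of control 3. Col6a4, one of the later-described alternative chains of type VI, was at 229, 201 and 268 CPM in the controls and 279 and 245 CPM in the mutants (0.17 ± 0.15; edgeR adjusted p = 0.492). Col6a5, a further such chain, was at 211, 183 and 344 CPM in the controls and 306 and 259 CPM in the mutants (0.20 ± 0.21; edgeR adjusted p = 0.594) and passed without control 3 (0.52; adjusted p = 0.033). Col6a3, the long chain that pairs with Col6a1 and Col6a2, was at 96.5 to 105 CPM in controls and 148 and 121 CPM in mutants (0.43 ± 0.13; edgeR adjusted p = 0.0577), both mutants lying above all controls. It passed under upper-quartile scaling (adjusted p = 0.0429), no filter (0.0373), the stricter filter (0.0451) and DESeq2 (0.036). Col6a6, a low alternative chain, was at 1.87, 2.49 and 4.30 CPM in the controls and 7.17 and 4.17 CPM in the mutants (0.98 ± 0.41; edgeR adjusted p = 0.149), with mutant 6 just below control 3, and passed without control 3 (1.37; adjusted p = 0.0489).

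Of the 6 collagens that rose, Col8a1 had the largest fold change on counts and on mean FPKM, but not on FPKM with a pseudocount. It is a chain of the short network collagen type VIII found around blood vessels and in Descemet's membrane of the eye. Col8a1 was at 2.97, 3.02 and 1.76 CPM in the controls and 8.58 and 8.64 CPM in the mutants, 3.30 times as high (1.72 ± 0.32; edgeR adjusted p = 0.00433). Raw counts did not overlap either, with 54, 51 and 25 reads in controls 1 to 3 against 97 and 112 reads in mutants 4 and 6. It passed without any 1 of the 5 libraries and did not pass on deposited FPKM. There its log2 fold change was 0.52 with a pseudocount of 1 and 1.02 with 0.1 (limma adjusted p = 0.271 and 0.421), against 0.93 and 1.06 for Col18a1. Without a pseudocount, mean FPKM of Col8a1 was 0.542 in controls and 1.23 in mutants. That ratio, mutant over control, was 2.27 for Col8a1 and 2.11 for Col18a1. Among the FACIT collagens, which sit on the surface of fibrils, 0 of 6 tested passed edgeR, where 6.11% of all genes rose. Of these 6, 1 had an unadjusted p under 0.05 (13.6% of all genes were higher) and 0 passed with DESeq2 (6.27% of all genes rose). Col12a1 was at 82.5 to 103 CPM in controls and 132 and 103 CPM in mutants, and Col14a1 at 19.8 to 21.3 CPM and 23.0 and 26.3 CPM.

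The 3 transmembrane collagens tested differed in sign and did not pass. Col13a1 was at 3.03 to 3.31 CPM in controls and 5.04 and 4.78 CPM in mutants (0.61 ± 0.32; edgeR adjusted p = 0.254), without overlap. Col17a1, the transmembrane collagen of hemidesmosomes, was at 1.54 to 3.10 CPM in controls and 1.15 and 1.39 CPM in mutants (-0.84 ± 0.50; edgeR adjusted p = 0.309). Col23a1 was at 14.9 to 21.6 CPM in controls and 11.5 and 15.4 CPM in mutants (-0.37 ± 0.23; edgeR adjusted p = 0.337). Col7a1, the anchoring fibril collagen, was at 1.98 to 3.73 CPM in controls and 2.21 and 0.849 CPM in mutants (-0.82 ± 0.52; edgeR adjusted p = 0.344). Col7a1 and Col17a1 had 11 to 53 counts a library. The 7 genes that failed the filter, Col2a1, Col8a2, Col9a1, Col9a2, Col9a3, Col11a2 and Col25a1, had between 2 and 39 counts over all 5 libraries; several of these are known from cartilage.

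**Figure D2:**
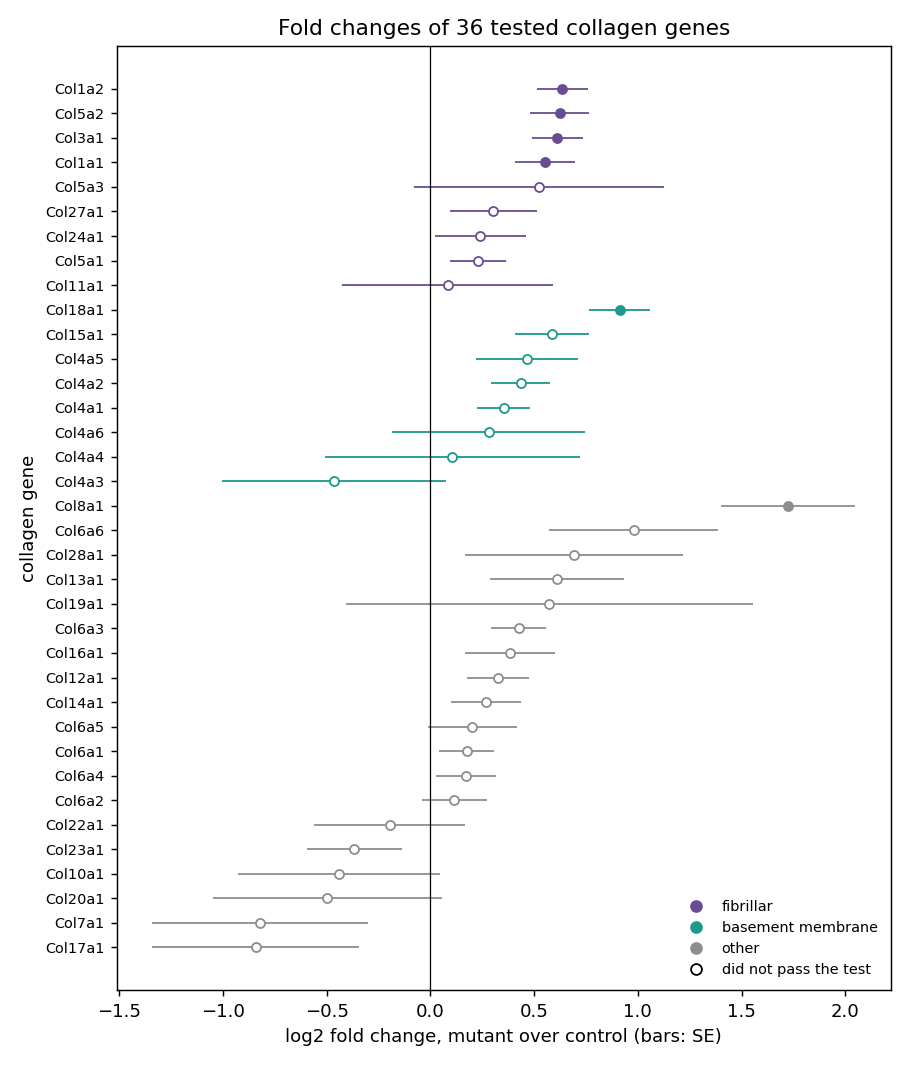
Log2 fold change, mutant over control, with its standard error for the 36 tested collagen genes by class; filled points passed the edgeR test at an adjusted p under 0.05. The 4 filled fibrillar points lie between 0.55 and 0.64, Col18a1 at 0.91 and Col8a1 at 1.72, and the points below 0 all belong to low or moderate genes that did not pass.

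By class, the fibrillar share of collagen transcripts was higher in both mutants than in any control. Fibrillar collagens were 37.7%, 38.9% and 35.6% of collagen FPKM in controls 1 to 3 against 42.2% and 42.8% in mutants 4 and 6. Basement membrane collagens were 15.7% ± 0.397 in controls (SD, n = 3) and 16.8% ± 0.426 in mutants (SD, n = 2). The other collagens were 46.9% ± 2.03 in controls and 40.8% ± 0.874 in mutants. For each of these shares the groups did not overlap, and the two-sided exact permutation p was 0.2, the smallest the design allows, so none can pass 0.05. Summed CPM was 944, 955 and 1055 for fibrillar collagens in controls 1 to 3 against 1442 and 1427 in mutants 4 and 6 (1.46 times), and 1.34 times as high in mutants for basement membrane collagens. The other collagens overlapped between groups (1.15 times; exact permutation test, two-sided p = 0.4). All collagens together were 0.365% ± 0.0470 of counts in controls and 0.453% ± 0.0264 in mutants, without overlap (exact permutation test, two-sided p = 0.2), and on summed FPKM the groups overlapped (0.144% ± 0.0222 and 0.170% ± 0.00966).

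Summed markers of mesenchyme were also higher in both mutants than in any control. The summed CPM of 18 fibroblast markers was 530 to 589 in controls and 765 and 692 in mutants (1.29 times), and that of 12 smooth muscle markers 400 to 615 and 763 and 631 (1.36 times). Of the fibroblast markers 1 of 17 tested rose (5.88%, near the 6.11% of all genes), Pdgfra, a receptor of the subepithelial mesenchyme (log2 fold change 0.66), and of the smooth muscle markers 2 of 12, Acta2 and Myh11 (0.68 and 0.75). No fibroblast or smooth muscle marker was at 0 in all libraries; Twist1, with 0 to 7 counts, was the single one at 0 in any (mutant 6). Summed endothelial markers were at 212 to 253 CPM in controls and 299 and 285 CPM in mutants, immune markers (1 of 11 rose, Csf1r) at 140 to 203 CPM and 330 and 306 CPM, neuron and glia markers (3 of 8 rose and 1 fell) at 99.0 to 111 CPM and 112 and 119 CPM, erythroid markers (0 of 5 rose and 1 fell, Alas2) at 50.4 to 62.7 CPM and 69.2 and 68.6 CPM, and epithelial markers (1 of 14 rose, Krt18, and 2 fell, Cdx2 and Esrp1) at 5137 to 5271 CPM and 4952 and 4814 CPM. The shares that rose were 16.7% of smooth muscle, 9.09% of immune, 37.5% of neuron and glia and 7.14% of epithelial markers. None of the endothelial or erythroid markers rose. Of all genes tested, 6.11% rose and 4.17% fell. The part of these markers in the collagen differences was not tested. Divided by the summed fibroblast markers, all collagens gave 4.83 ± 0.433 in controls and 4.86 ± 0.146 in mutants (exact permutation test, two-sided p = 1.0). The same ratio for fibrillar collagens was 1.74 ± 0.0772 in controls and 1.97 ± 0.125 in mutants, without overlap (two-sided exact permutation p = 0.2, the smallest possible).

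**Figure D3:**
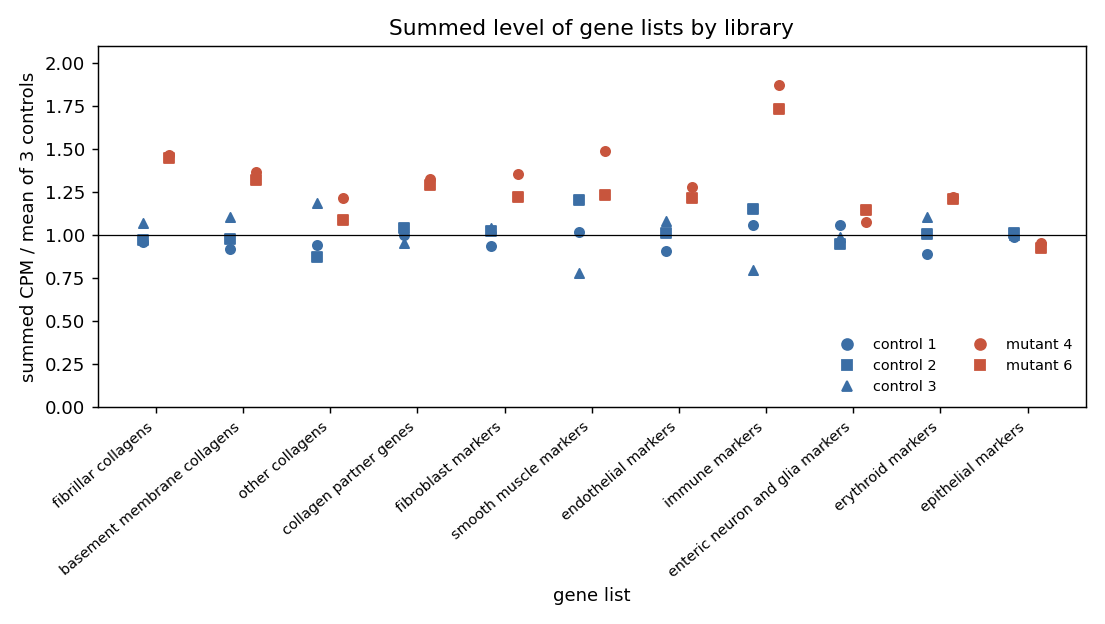
Summed CPM of each gene list in each library, divided by the mean of the 3 controls; blue symbols are controls and red symbols mutants. Both mutants lie above all controls for every list drawn except the other collagens, where they overlap, and the epithelial markers, where both lie below.

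Genes that make, modify, bind or cut collagen were read as a list of 94 found, of which 85 passed the filter on low counts. Of these 85, 17 rose, where 6.11% of all genes rose, and 0 fell with edgeR, where 4.17% of all genes fell. At an unadjusted p under 0.05, 0 were lower, where 12.1% of all genes were. With DESeq2 0 fell, where 4.21% of all genes did. The median log2 fold change with edgeR was 0.41. Leaving out control 1 left 7 that rose, leaving out mutant 4 left 3 and leaving out mutant 6 left 11, where the share of all genes that rose also dropped, to 3.74%, 2.67% and 3.56%. On deposited FPKM 0 rose, where 0.476% to 2.08% of all genes did. The list includes mesenchymal genes, and the marker sums given above apply to it too.

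Of the intracellular genes of collagen modification and folding 1 of 21 rose (4.76%, near the 6.11% of all genes). That was Plod1, which hydroxylates lysines of collagen chains, at 12.7, 12.3 and 16.7 CPM in the controls and 36.4 and 24.0 CPM in the mutants (1.12 ± 0.22; edgeR adjusted p = 0.00512). It did not pass without mutant 4 (0.79; adjusted p = 0.116). The collagen chaperone Serpinh1 was at 32.2 to 36.8 CPM in controls and 46.0 and 47.2 CPM in mutants (edgeR adjusted p = 0.0701), and P4hb, the shared subunit of prolyl hydroxylase, at 1407 to 2064 CPM and 2409 and 2563 CPM (edgeR adjusted p = 0.0669). Of 12 processing and cross-linking genes 1 rose (8.33%), Pxdn, the peroxidase that makes the sulfilimine bonds of type IV collagen, from 59.8 ± 4.40 to 86.9 ± 18.1 CPM (0.54 ± 0.15; edgeR adjusted p = 0.0369). Its mutants differed, at 99.7 and 74.1 CPM, and it did not pass without control 1, control 3 or mutant 4 (adjusted p = 0.132, 0.057 and 0.412). Lox, a lysyl oxidase that cross-links fibrils, was at 7.22 to 13.2 CPM in controls and 14.9 and 9.11 CPM in mutants.

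Among matrix proteins that lie with fibrils 6 of 15 rose, namely Eln, Postn, Lum, Fbn1, Fbn2 and Dpt. Postn, a matrix protein that binds type I collagen, was at 55.4, 56.5 and 49.6 CPM in the controls and 113 and 103 CPM in the mutants (1.00 ± 0.13; edgeR adjusted p = 0.000293). Eln, the elastin gene, was at 15.5, 18.4 and 15.1 CPM in the controls and 29.9 and 37.9 CPM in the mutants (1.05 ± 0.18; edgeR adjusted p = 0.00223). Both passed without any 1 of the 5 libraries. Of 16 laminins, nidogens and other partners in the basement membrane 5 rose (31.2%, against the same 6.11%), namely Lama3, Lama5, Lamb1, Nid1 and Agrn. Lama3, a laminin chain of epithelial adhesion, was at 8.26, 11.8 and 18.0 CPM in the controls and 29.8 and 30.2 CPM in the mutants (1.25 ± 0.26; edgeR adjusted p = 0.00743). Lama5, the main alpha chain under mature gut epithelium, was at 22.2 to 26.3 CPM in controls and 50.6 and 37.4 CPM in mutants (0.89 ± 0.17; edgeR adjusted p = 0.0051) and did not pass without mutant 4 (adjusted p = 0.117). Hspg2, the perlecan gene, was at 58.0 to 94.6 CPM in controls and 90.1 and 84.3 CPM in mutants and did not pass.

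Of 10 collagen receptors 3 rose (30.0%, where 6.11% of all genes rose). Ddr1, a collagen-activated tyrosine kinase of epithelia, was at 9.69, 13.0 and 8.38 CPM in the controls and 21.4 and 16.4 CPM in the mutants (0.86 ± 0.23; edgeR adjusted p = 0.0312), and did not pass without control 1, control 3 or mutant 4. Gpr56, an adhesion receptor that binds type III collagen, rose from 56.2 ± 5.79 to 90.6 ± 14.1 CPM (0.69 ± 0.15; edgeR adjusted p = 0.0087; 0.168 without mutant 4). The mesenchymal kinase Ddr2 rose as well, while the collagen-binding integrin chains Itga2 (log2 fold change -0.06) and Itgb1 (0.01) overlapped between groups. Of the 10 receptors 9 had a positive log2 fold change and 1, Itga2, a negative one, with a median of 0.40. On CPM both mutants lay above all controls in 5 of the 10 (50.0%, where 21.7% of all genes did). Of 11 genes of collagen breakdown and its inhibition 1 rose (9.09%, near the 6.11% of all genes). That was Timp2, an inhibitor of matrix metalloproteinases, which rose from 34.5 ± 3.28 to 51.2 ± 4.30 CPM (0.57 ± 0.15; edgeR adjusted p = 0.0275). It did not pass without control 1, control 3, mutant 4 or mutant 6 (adjusted p between 0.0604 and 0.227). The gelatinase Mmp2 was at 67.8 to 68.5 CPM in controls and 99.6 and 76.4 CPM in mutants (edgeR adjusted p = 0.117).

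**Figure D4:**
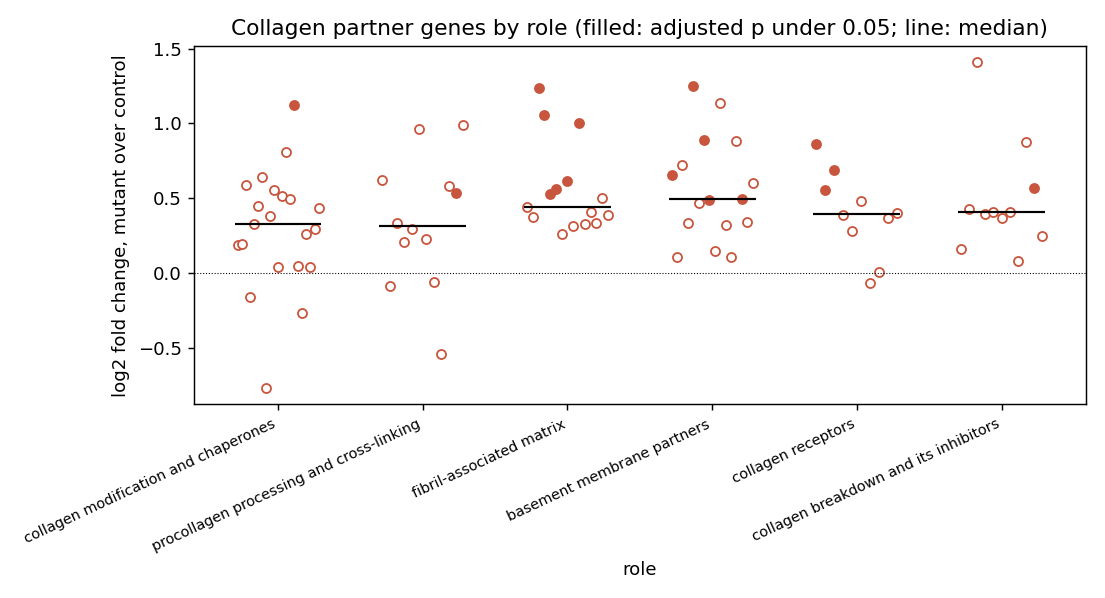
Log2 fold change, mutant over control, of the 85 tested collagen partner genes by role; filled points passed the edgeR test and the line is the median of the role. Filled points are most frequent among fibril-associated matrix (6 of 15) and basement membrane partners (5 of 16), and none lies below 0. Of all genes tested, 6.11% rose and 4.17% fell.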

How the data were processed

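RNA of laser-captured intervillus cells was amplified (Ovation RNA-Seq V2) and sequenced as single reads, per the labels' protocols. The authors deposited raw counts per RefSeq transcript and, for the same 28644 rows, FPKM values. Build mm9 and edgeR are named without a role in the submitters' processing notes; no aligner or counting program is given in the sources used here. A flag column headed Best, of type other and deposited by the authors with no description found, was not used. Of the count columns other than the names and Best, 0 matched no sample.

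All rows were fitted together in R 4.3.3 with edgeR 4.0.16 (default filter with a minimum count of 10, TMM, quasi-likelihood test, 3 residual degrees of freedom), with Benjamini-Hochberg adjustment over 19353 rows. A gene was read by its row with the highest mean count and called at an adjusted p under 0.05. The standard error is the absolute log2 fold change over the square root of F. In 41 rows a spreadsheet date stood for the symbol and was replaced by transcript. Alternatives used DESeq2 1.42.0, limma 3.58.1 on log2(FPKM + 1) or log2(FPKM + 0.1), other scalings and filters, and each library left out in turn; where 1 mutant was left, it is assumed to vary like the controls. The fits were also run on counts simulated with the dispersion fitted to these same data. That run cannot speak to the confounded groups, and no result here rests on it. Replicates differed beyond sampling noise (chi-square per gene 10.4 to 26.8, genes with at least 20 counts in the pair, where about 1 is noise). The genes described in full are every called collagen, the 4 of each class with the highest mean FPKM, and of each partner role up to 2 called genes with the largest change and an average log2 CPM of at least 3; further genes named were chosen after their values were seen. Members, classes and lists were chosen with earlier results of these data known.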

Additional observations from a re-analysis of the deposited data

How the results depend on the processing

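No paired analysis was possible because the controls (1, 2 and 3) and the mutants (4 and 6) share no replicate numbers. The main counts of rises were 6 collagens, 4 fibrillar, 1 basement membrane, 1 other and 17 partner genes, where 6.11% of all genes rose. On log2(FPKM + 1), log2(FPKM + 0.1), and log2(FPKM + 1) with a mean of at least 1, rises numbered 0, 0 and 1 for all collagens, 0, 0 and 0 for fibrillar, 0, 0 and 1 for basement membrane, 0, 0 and 0 for other collagens, and 0, 0 and 0 for partner genes. Of all genes 0.476%, 0.761% and 2.08% rose on these FPKM settings. Basement membrane rises numbered 2 under RLE, upper-quartile scaling, no filter, the stricter filter (CPM of at least 5 in 2 libraries) and DESeq2. There 6.27% to 6.97% of all genes rose. In the main fit they numbered 0 for type IV alone. Other collagen rises numbered 2 under upper-quartile scaling, no filter, the stricter filter and DESeq2, where Col6a3 joined Col8a1. In these settings too 6.27% to 6.97% of all genes rose. Leaving out 1 control gave 5 to 9 collagens, 3 to 4 fibrillar, 1 to 2 basement membrane, 1 to 3 other and 7 to 20 partner rises. There 3.74% to 7.32% of all genes rose. With a mutant left out fewer collagens and partner genes passed, as given above. In every alternative run with both mutants, edgeR, DESeq2 and limma gave 0 falls of collagens or partners. Of all genes, 0.0638% to 4.84% fell in those runs. The mutant minus control difference in the collagen share of counts was 0.0882 percentage points, 0.0691 to 0.114 with 1 library left out, and 0.0253 as a share of summed FPKM. All 23 genes named by the rule kept their direction in every alternative that gave a value. The cause of these differences was not tested. Col7a1 and Col17a1 had 11 to 53 counts a library and standard errors of 0.52 and 0.50 (log2); the part of depth in their not passing was not tested.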
